A study of Mus musculus with 2 samples.

Results

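The kinetochore is the protein assembly that joins a centromere to spindle microtubules, and the spindle checkpoint is the signal it sends until every chromosome is attached. A list of 34 genes of these structures was followed through the cell cycle, across retinal cell classes and between 2 genotypes. The members were chosen by gene symbol, and all 34 were found among the 27998 genes of the deposited matrices. They were placed in 5 groups: the centromere nucleosome (Cenpa, Hjurp), the inner kinetochore (10 Cenp genes), the outer kinetochore with its regulators (13 genes), the spindle checkpoint (5 genes) and the chromosomal passenger complex (4 genes).

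The cells were taken from mouse peripheral retina at postnatal day 8 and dissociated, and each genotype was sequenced as 1 droplet library. Both genotypes carried α-Cre, floxed Rb (Rb f/f) and loss of p107 (p107-/-). The tumor-prone library had these alleles and is called DKO, and the tumor-resistant one also carried Skp2+/- and is called DKO_Skp2het. As background, Rb and its relative p107 restrain genes driven by E2F factors, while Skp2 selects proteins such as the cyclin-dependent kinase inhibitor p27 for ubiquitination. The α-Cre transgene is active in the peripheral part of the retina, which was the part dissected, and cells that kept Rb were not told apart from cells that lost it. No library of normal retina was analysed here, and the number of animals behind each library is not given in the sources used here. With 1 library per genotype no test was possible, no p-value is given, and every interval below is a 95% interval of counting error alone.

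The DKO library held 3621 barcodes and 24413761 transcript counts (unique molecular identifiers, UMIs), and the DKO_Skp2het library held 5196 barcodes and 25766024 UMIs. The DKO_Skp2het library was shallower per cell, with a minimum of 2387 UMIs against 3420, so that 1884 of its 4978 kept cells lay below the lowest DKO barcode. The libraries shared 30 barcode sequences. Skp2 itself was at 57.2 CPM (UMIs of a gene per 1000000 UMIs of the cells considered) in the DKO_Skp2het library and 80.9 CPM in DKO, a ratio of 0.706 (0.659 to 0.758). Whether the 3′ tags of Skp2 lie in the deleted part is not given in the sources used here. Markers of other cell types also differed between the libraries: in dividing cells the summed rod markers (9 genes) were at 705 CPM in DKO and 293 CPM in DKO_Skp2het, and the progenitor markers (10 genes) at 1444 and 1912 CPM. The part these differences have in the library comparison was not tested.

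As background, kinetochores are built on nucleosomes that hold the histone H3 variant CENP-A, which Hjurp deposits outside S phase. The inner kinetochore, or constitutive centromere-associated network, sits on that chromatin through the whole cell cycle. The outer kinetochore, with the microtubule-binding Ndc80 complex at its core, is assembled on it for mitosis. Checkpoint proteins gather on outer kinetochores that lack microtubules and delay anaphase, while the passenger complex, with the kinase Aurora B, corrects wrong attachments. Many of these genes are turned on late in the cycle through promoter elements named CHR and CCAAT. At the CHR element the DREAM complex, of which p107 is a subunit, represses transcription in quiescent cells.

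The promoters of the members with the earliest and the latest onset over the cell cycle are shown first. The order of onset, described below, is the pattern these letters can be set beside. A gene that is level over the cycle, such as Zwint or Cenpm, counts as early by the onset rule without any rise. RefSeq promoter windows of 300 bases on GRCm38.p6 (250 before the annotated start and 50 from it onward) were found for 29 of the 34 members, and not for Spc24, Ska1, Zwilch, Aurkb and Incenp. The 180 bases from 150 before to 30 after the start are printed 5′ to 3′ on the gene's strand. Capitals mark matches, on either strand, to the letters TTTGAA (or TTCGAA) of the CHR element and to the CCAAT box. They also mark those of the E2F element, for which the forms TTCCCGC and, separately, TTGGCGC were searched. The latter can share bases with a CCAAT box on the other strand. The 4 earliest members with a window were Cenpk (chr13:104228461-104228640, plus strand), Cenpm (chr15:82244307-82244486, minus strand), Zwint (chr10:72654696-72654875, plus strand) and Cenph (chr13:100775870-100776049, minus strand).
Cenpk: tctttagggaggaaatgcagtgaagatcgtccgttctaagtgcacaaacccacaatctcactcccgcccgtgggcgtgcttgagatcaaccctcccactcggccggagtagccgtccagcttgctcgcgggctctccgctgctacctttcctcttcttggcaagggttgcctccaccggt
Cenpm: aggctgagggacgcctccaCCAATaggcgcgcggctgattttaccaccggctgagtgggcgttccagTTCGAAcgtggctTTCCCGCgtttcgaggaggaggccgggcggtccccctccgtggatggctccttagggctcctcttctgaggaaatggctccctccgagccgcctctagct
Zwint: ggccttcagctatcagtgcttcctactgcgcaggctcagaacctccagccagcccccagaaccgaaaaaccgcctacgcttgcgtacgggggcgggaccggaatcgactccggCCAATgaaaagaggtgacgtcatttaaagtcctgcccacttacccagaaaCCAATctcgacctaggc
Cenph: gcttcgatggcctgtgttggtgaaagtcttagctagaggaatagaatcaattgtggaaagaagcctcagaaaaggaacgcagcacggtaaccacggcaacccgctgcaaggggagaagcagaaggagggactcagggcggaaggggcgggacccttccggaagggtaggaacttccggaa
The 4 latest were Cenpe (chr3:135212413-135212592, plus strand), Cenpf (chr1:189688057-189688236, minus strand), Knstrn (chr2:118813853-118814032, plus strand) and Cenpa (chr5:30666736-30666915, plus strand).
Cenpe: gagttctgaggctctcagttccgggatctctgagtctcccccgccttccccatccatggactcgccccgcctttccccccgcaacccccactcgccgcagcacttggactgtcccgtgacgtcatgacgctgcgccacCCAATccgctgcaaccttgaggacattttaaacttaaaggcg
Cenpf: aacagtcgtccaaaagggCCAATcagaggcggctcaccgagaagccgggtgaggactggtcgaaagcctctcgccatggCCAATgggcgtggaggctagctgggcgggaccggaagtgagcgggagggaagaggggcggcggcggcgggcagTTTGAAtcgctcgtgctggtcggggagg
Knstrn: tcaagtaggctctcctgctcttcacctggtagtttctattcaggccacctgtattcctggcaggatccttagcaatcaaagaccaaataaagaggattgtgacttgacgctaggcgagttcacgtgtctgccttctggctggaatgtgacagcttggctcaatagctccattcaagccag
Cenpa: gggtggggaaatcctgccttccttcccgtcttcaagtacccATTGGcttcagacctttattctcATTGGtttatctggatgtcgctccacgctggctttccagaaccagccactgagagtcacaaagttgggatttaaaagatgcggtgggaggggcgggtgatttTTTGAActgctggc

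Cenpa and Cenpf, both late, each held 2 CCAAT and 1 CHR match in the whole window, with the CHR letters beginning 16 and 2 bases after the start. Cenpm, an early member, held all 3 kinds, with 2 CCAAT, a CHR match beginning 83 bases before the start and E2F letters beginning 70 before it. In Cenph the only matches, 1 CCAAT and 1 E2F, lay 31 and 42 bases after the start, beyond the printed stretch, and in Cenpk the only match was a CCAAT 159 bases before it. Knstrn, late, held none of these letters. Over the 29 windows, CHR letters were in 16 (55.2%, against 19.2% of all 32851 promoter windows), CCAAT in 21 (72.4%, against 37.4%) and both in 14 (48.3%, against 7.52%). E2F letters were in 5 (17.2%, against 6.81%): Cenph, Cenpl, Cenpm, Cenpn and Ska2. Divided by onset at bin 3, the 19 later members held CHR in 11, CCAAT in 12 and E2F in 1, and the 10 earlier members held CHR in 5, CCAAT in 9 and E2F in 4. These are matches of short letters in a window and are not measured binding sites.

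Members were read across the cell cycle within dividing cells. Every cell was thinned to 1500 UMIs, and those that then held 3 or more UMIs of 26 core proliferation genes were called dividing. By this rule 69.4% of the kept DKO cells were dividing (2438 of 3515, interval 67.8 to 70.9) and 61.95% of the kept DKO_Skp2het cells (3084 of 4978, interval 60.6 to 63.3). Without thinning the shares were 85.5% and 77.2%. Dividing cells were ordered by the share of G2M-phase UMIs among their S- and G2M-phase UMIs and divided into 6 bins of equal number over both libraries. None of these lists holds a member. Landmark genes lay in the known order along this axis, which was itself built from S- and G2M-phase genes. Their order describes the axis and is not a separate test of it. The level-weighted mean bin (the centre) was 2.67 for Cdc6, a licensing factor of replication, in DKO and 2.70 in DKO_Skp2het. It was 4.601 and 4.59 for cyclin A2 (Ccna2) and 5.33 and 5.37 for cyclin B1 (Ccnb1).

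Summed over the 34 genes, the level rose at each step of the axis in both libraries. In DKO it went from 1374 CPM in bin 1 through 1730, 3005, 5077 and 7194 to 10273 CPM in bin 6, and in DKO_Skp2het from 1274 through 1827, 2804, 5682 and 7590 to 10434 CPM. Cells not called dividing held 689 and 668 CPM. The level in bin 6 was at least 2 times that in bin 1 for 29 of 34 members in each library, where 7.85% of 10042 genes in DKO and 7.52% of 9877 in DKO_Skp2het reached that ratio. The exceptions in both libraries were Cenph, Cenpk, Cenpm, Zwint and Kntc1. A total of 24 members in DKO and 22 in DKO_Skp2het were highest in bin 6, and 21 in both, where 24.1% and 25.4% of all genes were.

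**Figure D1:**
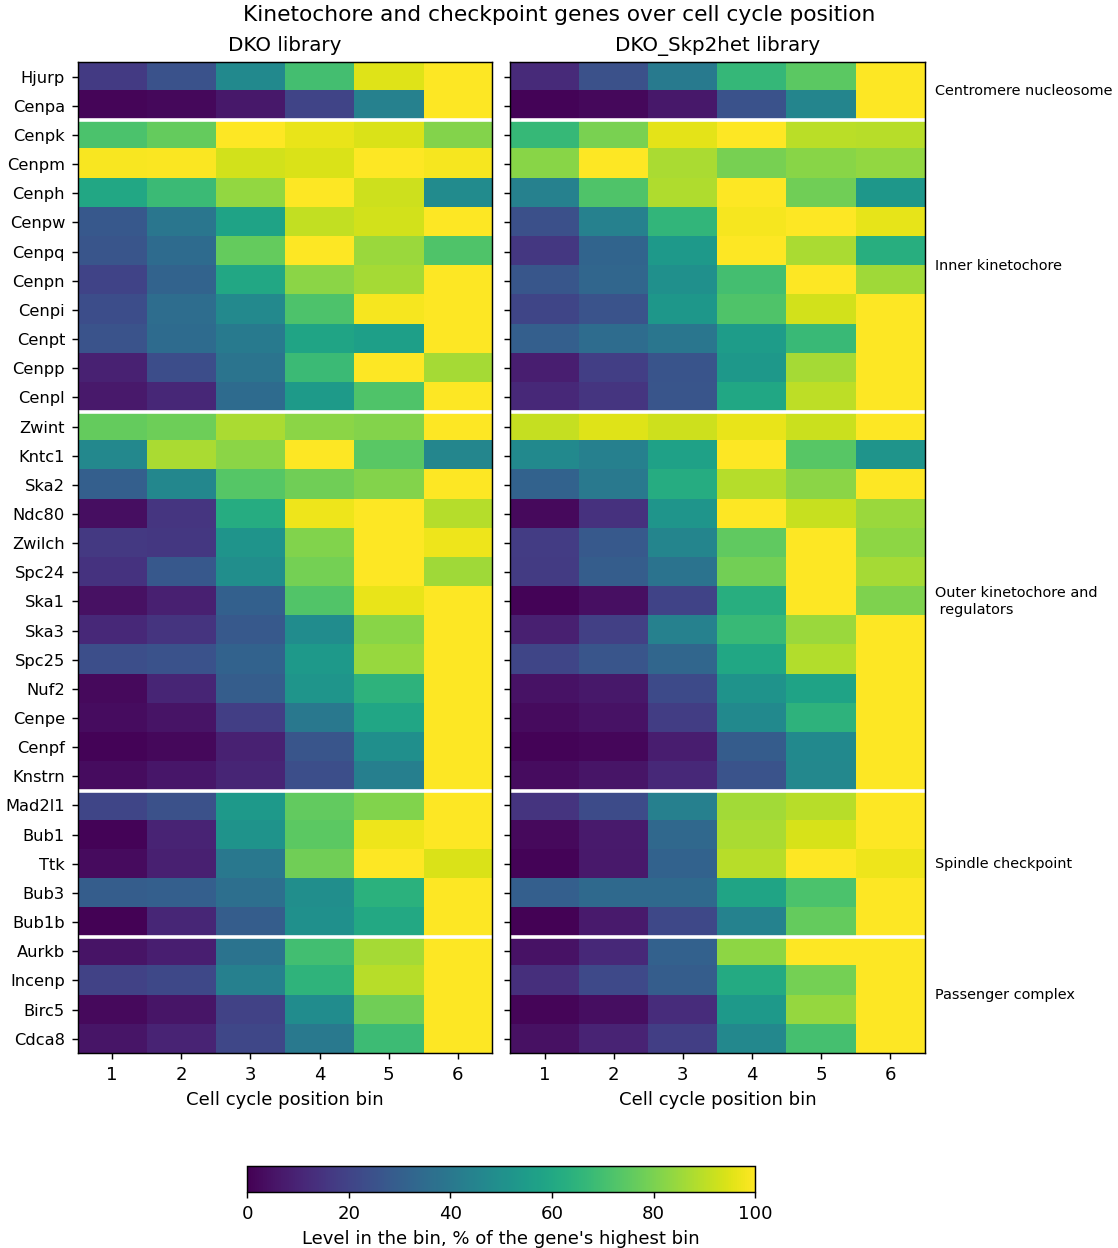
Level of each of the 34 genes in the 6 cell cycle position bins, as a percentage of that gene's highest bin, in the DKO library (left) and the DKO_Skp2het library (right); rows are grouped by role and ordered by onset. Cenpk, Cenpm and Zwint were near their highest level from bin 1 on, while Cenpa, Cenpf and Knstrn were concentrated in bin 6.

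The centromere nucleosome genes were the most separated pair. Cenpa (ENSMUSG00000029177, chromosome 5, 30666777 to 30674830 of GRCm38), the histone variant itself, was at 20.2, 29.1, 85.2, 268, 570 and 1299 CPM over the bins in DKO and at 14.3, 28.2, 82.1, 331, 595 and 1311 CPM in DKO_Skp2het. In CPM the largest step was the last one in both libraries, and the level in bin 6 was 64.2 times bin 1 in DKO (44.3 to 96.8) and 91.8 times in DKO_Skp2het (65.6 to 133). Its chaperone Hjurp was at 32.5, 48.2, 90.2, 133, 181 and 191 CPM in DKO and at 30.2, 63.7, 104, 170, 190 and 255 CPM in DKO_Skp2het. Onset was taken as the interpolated bin at which a gene first reached 50% of its highest bin. It was 3.12 and 3.36 for Hjurp against 5.11 and 5.08 for Cenpa, so the chaperone transcript rose earlier than that of the histone it deposits in each library.

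Of the 10 inner kinetochore genes, 6 had reached 50% of their maximum before bin 3 in both libraries. Cenpm was level across the axis, at 208 to 262 CPM in every bin of both libraries, and bin 6 was 0.997 times bin 1 in DKO (0.865 to 1.15) and 1.02 times in DKO_Skp2het (0.906 to 1.15). It was not a constant transcript, since cells not called dividing held 49.5 and 53.9 CPM. Cenph was highest in bin 4, at 62.5 and 62.2 CPM, and had fallen to 30.1 and 33.0 CPM by bin 6; its partner in the same subcomplex, Cenpk, ranged from 46.2 to 70.1 CPM with a maximum in bin 3 or 4. Cenpq also peaked in bin 4, at 186 and 207 CPM, against 49.1 and 33.2 CPM in bin 1. Cenpw, a histone-fold subunit with the most UMIs of the group, reached 298 and 280 CPM by bin 4 and stayed at 274 to 329 CPM after it.

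Among the other inner subunits, onset was 2.64 and 2.999 for Cenpn, which binds the CENP-A nucleosome, 3.11 and 2.90 for Cenpi, 3.51 and 3.66 for Cenpt, 3.39 and 3.88 for Cenpp, and 3.76 and 3.71 for Cenpl. From bin 1 to bin 6 the inner gene with the largest ratio was Cenpl in DKO, at 14.3 (7.86 to 29.0), and Cenpp in DKO_Skp2het, at 11.8 (7.65 to 19.1). Cenpt, which links chromatin to the Ndc80 complex, had the smallest difference between dividing and other cells of the group, at 46.6 against 20.6 CPM in DKO and 46.3 against 21.4 CPM in DKO_Skp2het. Several of these values can hold reads of a neighbour if counting ignored strand, which is not stated: Cenph, Cenpk, Cenpp, Cenpq and Cenpt overlap a gene on the opposite strand in GENCODE release M21, as do Ska2, Ska3, Knstrn, Cenpf, Zwilch, Bub3 and Cdca8. Ndc80, Ska2 and Incenp overlap small genes on their own strand.

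Among the 4 subunits of the Ndc80 complex, the microtubule-binding core, onset was spread over more than 1 bin. Ndc80 itself rose first, from 2.89 and 2.52 CPM in bin 1 to 75.4 and 96.4 CPM in bin 4, with onset at 2.74 in DKO and 2.94 in DKO_Skp2het. Spc24 followed at 3.02 and 3.29, while Spc25 was at 3.81 and 3.64 and Nuf2 at 3.91 and 3.95. Spc25 (ENSMUSG00000005233, chromosome 2, 69193895 to 69206194) had the most UMIs of all members, 11463 and 9690, and was present early, at 285 CPM in bin 1 and 1179 CPM in bin 6 in DKO and at 232 and 1109 CPM in DKO_Skp2het. Subunits of 1 complex therefore did not share 1 profile at the transcript level: from bin 1 to bin 6 Nuf2 rose 38.7-fold (16.4 to 120) and Spc25 4.13-fold (3.72 to 4.601) in DKO, and 20.7-fold (13.1 to 34.7) and 4.77-fold (4.36 to 5.24) in DKO_Skp2het.

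The Ska complex, which follows depolymerising microtubule ends, showed the same kind of spread. Ska2 was at 46.2 and 55.0 CPM in bin 1 and 152 and 175 CPM in bin 6, with onset at 2.14 and 2.45. Ska1 was low at first, at 7.23 and 2.10 CPM, and reached 167 and 156 CPM in bin 6, with onset at 3.46 and 3.71. Ska3 had onset at 4.04 in DKO and 3.26 in DKO_Skp2het. Of the dynein-recruiting Rod-Zwilch-Zw10 complex, Kntc1 (its Rod subunit) peaked in bin 4 at 15.5 and 21.3 CPM and fell to 7.10 and 10.99 CPM, while Zwilch was highest in bin 5 at 21.9 and 26.0 CPM. Both rest on few UMIs, 202 and 201 for Kntc1 and 249 and 231 for Zwilch in the positioned cells.

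The outer genes with the latest onset were Cenpf, Knstrn and Cenpe. Cenpf, a large protein of the kinetochore corona, rose from 17.3 to 1846 CPM in DKO, 106-fold (71.4 to 166), and from 15.1 to 1759 CPM in DKO_Skp2het, 116-fold (83.9 to 166). Cenpe, a kinesin that carries chromosomes to the spindle equator, rose from 13.7 to 430 CPM and from 13.02 to 467 CPM. Knstrn (small kinetochore-associated protein) went from 15.2 to 450 CPM and from 15.1 to 457 CPM. Onset was 5.00 and 5.05 for Cenpf, 5.12 and 5.06 for Knstrn, and 4.52 and 4.15 for Cenpe. With Cenpa, Cenpf and Knstrn were the 3 members with onset after bin 5 in each library.

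**Figure D2:**
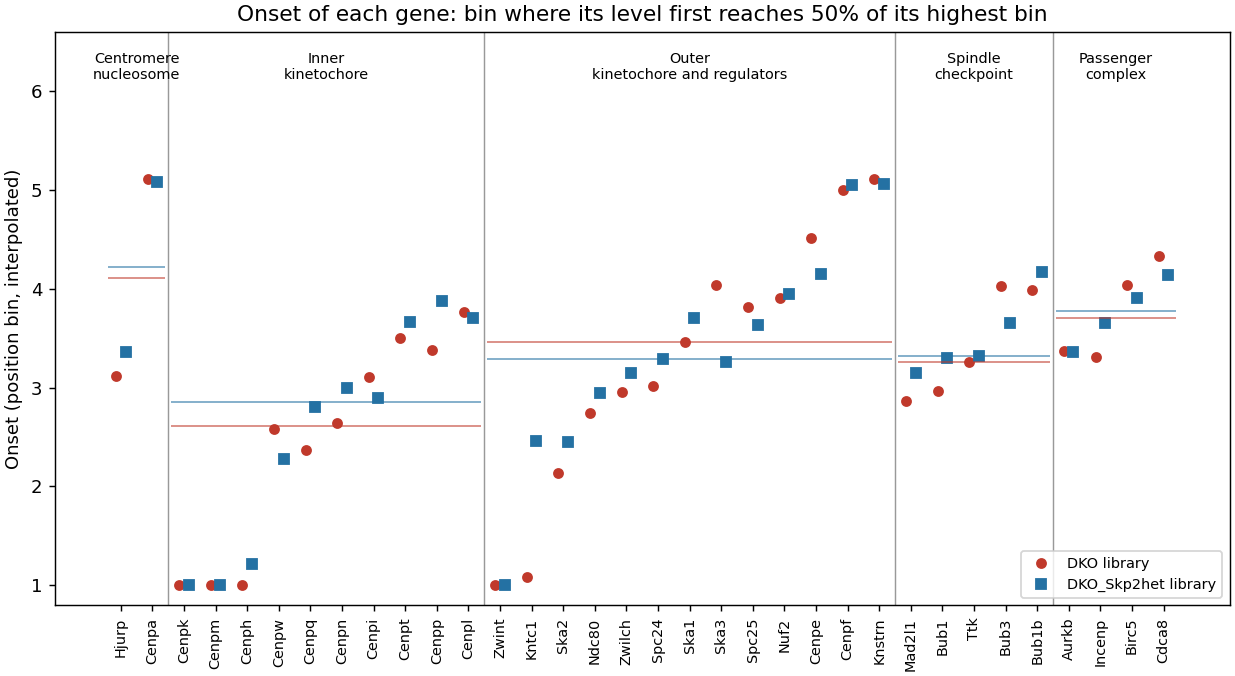
Onset of each gene, in position bins, with circles for the DKO library and squares for the DKO_Skp2het library; horizontal lines are group medians. Inner kinetochore genes had median onsets of 2.61 and 2.85, and outer genes of 3.46 and 3.29.

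Checkpoint transcripts rose between these extremes. The kinase Bub1 went from 0.723 CPM (1 UMI) in bin 1 to 43.5, 63.4, 82.7 and 84.8 CPM in bins 3 to 6 of DKO and from 2.52 to 34, 87.4, 94.2 and 100 CPM in DKO_Skp2het. The kinase Ttk (Mps1), which starts checkpoint signalling, was alike, with a plateau of 71.4 to 86.7 CPM in bins 5 and 6. Bub1b (BubR1), a part of the inhibitor of anaphase onset, climbed to the end, from 47.2 and 39.8 CPM in bin 4 to 94 and 89.4 CPM in bin 6. Mad2l1 (Mad2), another part of that inhibitor, had the earliest onset of the group, at 2.87 and 3.15. Bub3, with the most UMIs of the group, was present throughout: 137 and 146 CPM in bin 1, 465 and 486 CPM in bin 6, and 89.1 and 96.0 CPM in cells not called dividing.

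All 4 passenger genes were highest in bin 6 in both libraries. Birc5 (survivin) rose from 19.5 to 803 CPM in DKO and from 11.3 to 837 CPM in DKO_Skp2het, and Cdca8 (borealin) from 42.6 to 740 CPM and from 33.2 to 762 CPM. The kinase Aurkb had reached 182 and 214 CPM by bin 4 and 261 and 258 CPM by bin 6, with onset at 3.37 and 3.36. The scaffold Incenp rose least, 5.07-fold in DKO (3.65 to 7.22) and 7.48-fold in DKO_Skp2het (5.71 to 9.94). Onset was 4.04 and 3.91 for Birc5 and 4.34 and 4.14 for Cdca8.

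Set side by side, inner genes came before outer genes, with wide overlap. The median onset of the 10 inner genes was bin 2.61 in DKO and 2.85 in DKO_Skp2het, that of the 13 outer genes 3.46 and 3.29, of the 5 checkpoint genes 3.26 and 3.32, and of the 4 passenger genes 3.71 and 3.78. Of the 130 pairs of 1 inner and 1 outer gene, the outer gene had the later onset in 92 in DKO and 90 in DKO_Skp2het, and the later centre in 98 and 96. Summed over the group, inner genes reached 50% of their maximum at bin 1.62 and 1.58 and outer genes at 4.28 and 4.06. These sums are weighted toward members with high levels, among them Cenpm in the inner group and Cenpf and Spc25 in the outer group. Between the group medians the gap was smaller by the centre, 0.27 bins in DKO and 0.32 in DKO_Skp2het, than by the onset, 0.85 and 0.44. Outer members with an early onset were Zwint, Kntc1, Ska2 and Ndc80, and inner members with a late onset were Cenpl, Cenpp and Cenpt. A gene that is level along the axis, such as Zwint or Cenpm, has its onset at bin 1 by this rule without any rise. Such genes are counted in the medians and pairs above.

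The order was much the same in both libraries. For 32 of 34 members the onsets lay within 0.5 bins of each other, and the exceptions were Kntc1, at 1.08 and 2.46, and Ska3. Within clusters of cells, the median centre of the outer genes was later than that of the inner genes in 12 of 14 combinations of 7 clusters and 2 libraries. Most of these combinations had an empty position bin. Some also rest on fewer genes, such as 5 inner and 5 outer genes in cluster 1 of DKO. In cluster 3, an unnamed cluster led by Fabp7 whose cells filled every bin in both libraries, the gap was 0.48 bins in DKO and 0.51 in DKO_Skp2het. The exceptions were -0.04 in cluster 0 (led by Npy) of DKO and -0.03 in the neurogenic precursor-like cluster 5 of DKO_Skp2het, whose cells were mostly late.

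Genes outside the list with a like profile were found by the correlation of log levels with the summed members over the 12 points of 6 bins and 2 libraries, among 7239 genes. The closest were Aspm (r = 0.998), a spindle pole protein, the histone variant H2afx, Ubald2, Rangap1 and Depdc1a. Rangap1 stimulates GTP hydrolysis by the GTPase Ran and is found at kinetochores. Aspm went from 1.45 to 165 CPM from bin 1 to bin 6 in DKO and from 2.10 to 178 CPM in DKO_Skp2het. The points share 2 libraries and 1 axis, so these correlations are descriptions.

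Between dividing and other cells, 33 of 34 members were at least 2 times higher in dividing cells in each library, where 7.78% of 11177 genes in DKO and 7.37% of 11324 in DKO_Skp2het were. The median ratio was 9.83 in DKO and 10.8 in DKO_Skp2het. The largest ratios were those of Aurkb, at 153 against 4.41 CPM in DKO (34.7-fold, 24.2 to 51.5) and 142 against 4.21 CPM in DKO_Skp2het (33.8-fold, 24.4 to 48.1), of Bub1, at 30.9-fold (17.6 to 60.1) and 39.8-fold (22.7 to 77.4), and of Cenpf, at 31.5-fold (26.6 to 37.7) and 27.6-fold (23.8 to 32.2). Cenpt, Ska2 and Bub3 had the smallest ratios above 1, from 2.17 to 2.78. The inner group had the lowest median ratio of the 5 groups, 5.81 and 6.01 against 13.1 and 13.9 for outer genes.

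Zwint, an outer kinetochore protein that holds the Rod-Zwilch-Zw10 complex and is also known as a neuronal partner of the synaptic protein SNAP25, went the other way. Its level was 107.4 CPM in dividing and 138 CPM in other cells of DKO, a ratio of 0.777 (0.718 to 0.842), and 112 and 140 CPM in DKO_Skp2het, a ratio of 0.798 (0.741 to 0.859). Over the 6 bins it stayed between 96.8 and 127 CPM in both libraries. Among cells not called dividing, amacrine-like cells held the most, 317 CPM in DKO (285 to 353) and 398 CPM in DKO_Skp2het (356 to 443). Bipolar-like cells held 154 and 150 CPM, immature neuron-like cells 133 and 158 CPM, rod-like cells 44.6 and 70.9 CPM and microglia-like cells 57.7 and 54.9 CPM. Over all cells of a class, and among classes with at least 20 cells in the library, Zwint was the only member whose highest level in DKO_Skp2het was in amacrine-like cells. In DKO its highest level was in unnamed cluster 20, whose nearest markers were amacrine and in which 14 of 23 cells were dividing, at 326 CPM (259 to 406), against 308 CPM (277 to 342) in amacrine-like cells.

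Cell classes were built by clustering without a fixed set of 153 genes, which held the members and the cell cycle lists, and named from marker lists. Cell cycle genes outside that set were not removed. The clusters still differed in cell cycle position, so a class level is not separate from position in the cycle. The summed level of the 34 genes was highest in classes made mostly of dividing cells. Neurogenic precursor-like cells (330 in DKO and 415 in DKO_Skp2het), all of them called dividing, held 8316 and 8705 CPM. Ccnb1 was among the 10 leading genes of the cluster that forms this class. Unnamed cluster 4, nearest to the same marker list, held 2257 and 1998 CPM, with 88.8% and 86.2% of its cells dividing. The share of cells late in the cycle differed widely between these clusters, as given below. Progenitor-like cells held 6827 and 5102 CPM, with 87.9% (85.4 to 90.2) and 67.8% (65.1 to 70.4) of them dividing. Amacrine and horizontal precursor-like cells held 3718 and 3831 CPM. Unnamed cluster 13, which was led by the mitotic genes Cdc20 and Ccnb1, held 11149 and 9887 CPM, with Cenpa at 1614 and 1439.5 CPM and Cenpf at 2014 and 1425 CPM; Knstrn, a member, was among its 10 leading genes.

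**Figure D3:**
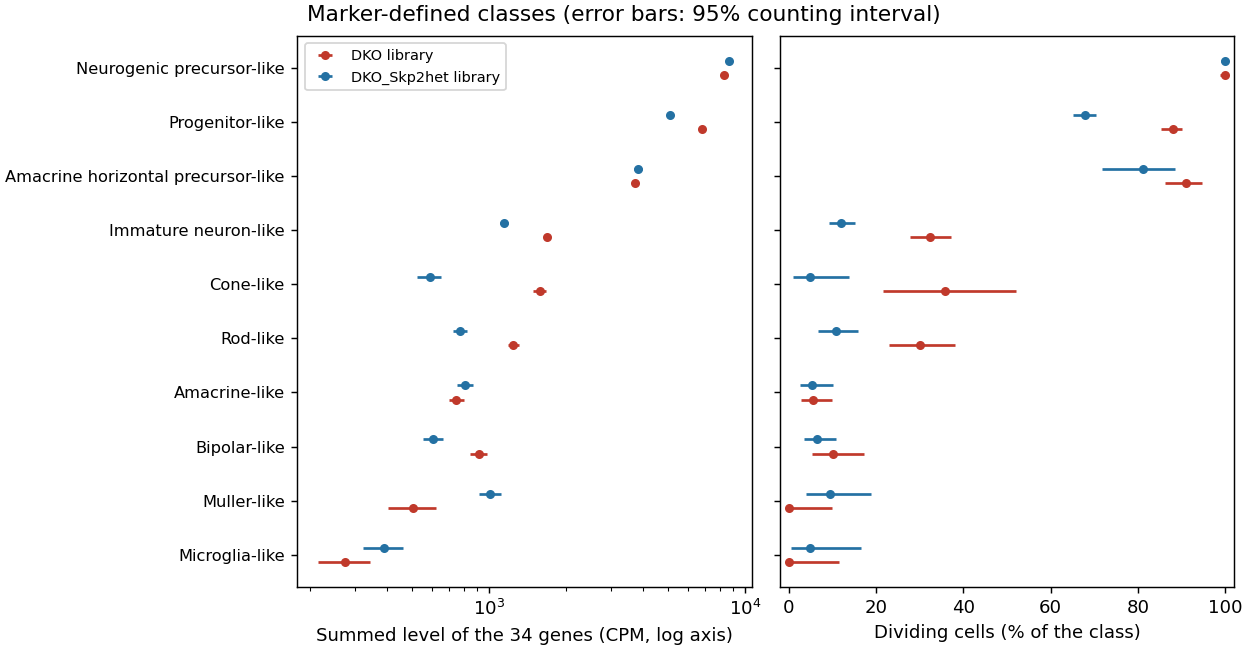
Left, summed level of the 34 genes (CPM, log axis) in each marker-defined class with at least 20 cells in each library. Right, percentage of the class called dividing; bars are 95% counting intervals. Cone-, rod- and immature neuron-like cells of the DKO library were higher in both panels than those of DKO_Skp2het.

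Differentiated classes and immature neuron-like cells held far less, with a difference between the libraries in several of these classes. Rod-like cells (153 and 195) were at 1249 CPM in DKO and 770 CPM in DKO_Skp2het, a ratio of 0.617 (0.570 to 0.668), immature neuron-like cells (411 and 514) at 1691 and 1149 CPM, a ratio of 0.680 (0.647 to 0.713), and cone-like cells (42 and 60) at 1582 and 588 CPM, a ratio of 0.371 (0.328 to 0.420). The share of dividing cells was lower in the same classes: 30.1% (22.9 to 38.0) against 10.8% (6.79 to 16.0) in rod-like cells, 32.4% (27.9 to 37.1) against 12.1% (9.37 to 15.2) in immature neuron-like cells and 35.7% (21.6 to 52.0) against 5.00% (1.04 to 13.9) in cone-like cells. Among cells not called dividing, the levels were 497 and 464 CPM in rod-like, 695 and 626 CPM in immature neuron-like and 427 and 387 CPM in cone-like cells. Rod-like cells called dividing held 2773 and 2808 CPM. Cone-like cells of DKO were deeply covered, with a median of 11120 UMIs against 6479, and whether some hold RNA of 2 cells was not tested; with the cells of the highest doublet scores kept, the log2 ratio was -0.46 in rod-like and -1.03 in cone-like cells.

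Bipolar-like cells were at 914 and 606 CPM, a ratio of 0.663 (0.590 to 0.745), with 10.3% and 6.53% of them dividing. In DKO the 12 dividing cells held 351 of 721 member UMIs, and the cells not called dividing were at 566 and 562 CPM. Amacrine-like cells, in which 5.70% and 5.45% were dividing, were at 748 and 809 CPM, a ratio of 1.08 (0.978 to 1.196), of which the outer group, Zwint included, made up 440 and 515 CPM. Müller-like cells were at 505 CPM in DKO, where 0 of 35 cells were dividing (exact interval up to 10.0%), and 1012 CPM in DKO_Skp2het, where 7 of 73 were. Those 7 cells held 252 of the 385 member UMIs of the class, and the cells not called dividing were at 505 and 418 CPM. At a finer clustering resolution the Müller-like class grew to 298 and 378 cells and its log2 difference was -0.29. Microglia-like cells, which are not of the neural lineage, had a summed level of 274 CPM (216 to 343) in DKO and 389 CPM (323 to 465) in DKO_Skp2het. Whether this level came from free RNA or from the cells themselves was not tested. Of the 34 genes, 11 and 7 had no UMI there, Bub1, Bub1b and Ndc80 among them in both libraries. In DKO_Skp2het 2 of the 41 cells were called dividing and held 29 of the 122 UMIs, and the others were at 319 CPM.

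The progenitor-like class shows how much the choice of cells matters. Its ratio between the libraries was 0.747 (0.734 to 0.760), but it joins cluster 1, led by Hes5, with 227 DKO and 787 DKO_Skp2het cells, and cluster 2, led by Tagln2 and Prc1 and with the members Spc25 and Birc5 among its 10 leading genes, with 510 and 470 cells. Only 5.07% and 5.90% of the positioned cells of cluster 1 were in bins 5 and 6, against 78.0% and 78.7% in cluster 2. When only cells of at least 3420 UMIs were kept and clustered anew, the class held 504 and 388 cells in place of 737 and 1257, and its log2 difference was 0.096 in place of -0.42. In neurogenic precursor-like cells, held by 1 cluster in both libraries, the ratio was 1.05 (1.02 to 1.07). Unnamed cluster 4, nearest to the same marker list but outside that class, had a ratio of 0.885 (0.841 to 0.932). Of its positioned cells 1.05% and 1.12% were in bins 5 and 6, against 70.9% and 78.8% in the neurogenic precursor-like class.

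Between the genotypes, over all kept cells, most members were a little lower in the DKO_Skp2het library. The sum was 3834 CPM in DKO and 3386 CPM in DKO_Skp2het, and 31 of 34 members had a log2 difference below 0, with a median of -0.13, against 5492 of the 12421 genes with at least 100 UMIs below 0 and a median of 0.020 over them. The counting interval, which is narrower for genes with more UMIs, lay below 1 for 21 members and above 1 for 0, where it did for 15.7% and 22.3% of these genes. The lowest ratios were those of Cenpw, at 188 and 141 CPM (0.752, 0.719 to 0.786), Bub1b, at 31.7 and 24.4 CPM (0.768, 0.688 to 0.857), and Ska1, at 72.0 and 55.9 CPM (0.777, 0.723 to 0.835). The highest were those of Zwint (1.05, 0.999 to 1.11), Kntc1 (1.03, 0.855 to 1.24) and Bub3 (1.02, 0.976 to 1.06). Cenpw, Bub1b and Ska1 were the 3 members at a ratio of 0.8 or less, where 5.69% of all genes were, and 0 members were higher by at least 25%, where 9.44% of all genes were.

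By group, the median ratio over all cells was 0.902 for inner, 0.929 for outer, 0.892 for checkpoint and 0.859 for passenger genes. The passenger genes with the most UMIs, Birc5, at 274 and 232 CPM, and Cdca8, at 239 and 208 CPM, had ratios of 0.846 (0.816 to 0.877) and 0.873 (0.840 to 0.907). Spc25, at 487 and 403 CPM, had a ratio of 0.826 (0.804 to 0.849) and Cenpf, at 440 and 360 CPM, one of 0.818 (0.795 to 0.842). Hjurp, at 91.6 and 91.3 CPM, and Ska2, at 91.7 and 91.5 CPM, were at 0.997 (0.939 to 1.06) and 0.999 (0.941 to 1.06). With only cells of at least 3420 UMIs, which leaves out 1884 DKO_Skp2het cells and 0 DKO cells, 17 members were below and 17 above 0, with a median log2 difference of -0.00056. With every cell thinned to 1500 UMIs the median was -0.25.

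Within dividing cells the members stood almost level. The median log2 difference was -0.0037, with 19 members below 0 and 15 above, and 0 members were at a ratio of 0.8 or less or higher by at least 25%, where 9.08% and 10.6% of 11332 genes were. Cenpw stayed lowest, at 246 and 204 CPM (0.829, 0.791 to 0.869), followed by Bub1b (0.856, 0.766 to 0.957), Ska1 (0.863, 0.802 to 0.928) and Cenpq (0.876, 0.824 to 0.932). Hjurp was highest, at 124 and 136 CPM (1.10, 1.03 to 1.17). With only cells of at least 3420 UMIs, 27 members were above 0, with a median of 0.10, and after thinning to 1500 UMIs the median was -0.15. In cells not called dividing, 27 members had at least 50 UMIs, and 14 of them were below 0 and 13 above. Of the 21 with at least 100 UMIs, 3 (Cenpw, Mad2l1 and Cdca8) were at a ratio of 0.8 or less and 0 were higher by at least 25%, where 8.45% and 8.79% of 10606 genes were.

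Dividing cells of the libraries were not spread alike over the cycle. Bins 1 and 2 held 26.2% of the positioned DKO cells and 39.0% of those of DKO_Skp2het, and bins 5 and 6 held 37.3% and 30.2%. With cells of at least 3420 UMIs the shares of bins 1 and 2 were 30.9% and 36.3%, and those of bins 5 and 6 were 33.6% and 32.9%. Since most members rise along this axis, levels were also compared with each bin given equal weight.

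At matched position the direction differed from that over all kept cells. A total of 27 of 34 members were higher in DKO_Skp2het and 7 lower, with a median log2 difference of 0.085, where 6483 of 11314 genes were higher and the median was 0.028. The interval lay above 1 for 16 members and below 1 for 3, where it did for 21.1% and 14.3% of these genes. The highest ratios were those of Hjurp, at 113 and 135 CPM (1.202, 1.13 to 1.28), and Cenpl, at 53.1 and 63.4 CPM (1.196, 1.09 to 1.31), followed by Kntc1 (1.17, 0.958 to 1.43) and Ndc80 (1.17, 1.07 to 1.29). The 3 members with an interval below 1 were Cenpw, at 224 and 203 CPM (0.907, 0.865 to 0.952), Cenpf (0.948, 0.921 to 0.976) and Spc25 (0.966, 0.939 to 0.994). Here too 0 members were at a ratio of 0.8 or less or higher by at least 25%, where 8.12% and 9.4% of all genes were. The medians of the members' lower and upper interval bounds, as log2 differences, were -0.0059 and 0.20, a range that held 0. With only cells of at least 3420 UMIs, the median log2 difference was 0.10 both at matched position and in dividing cells without matching.

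**Figure D4:**
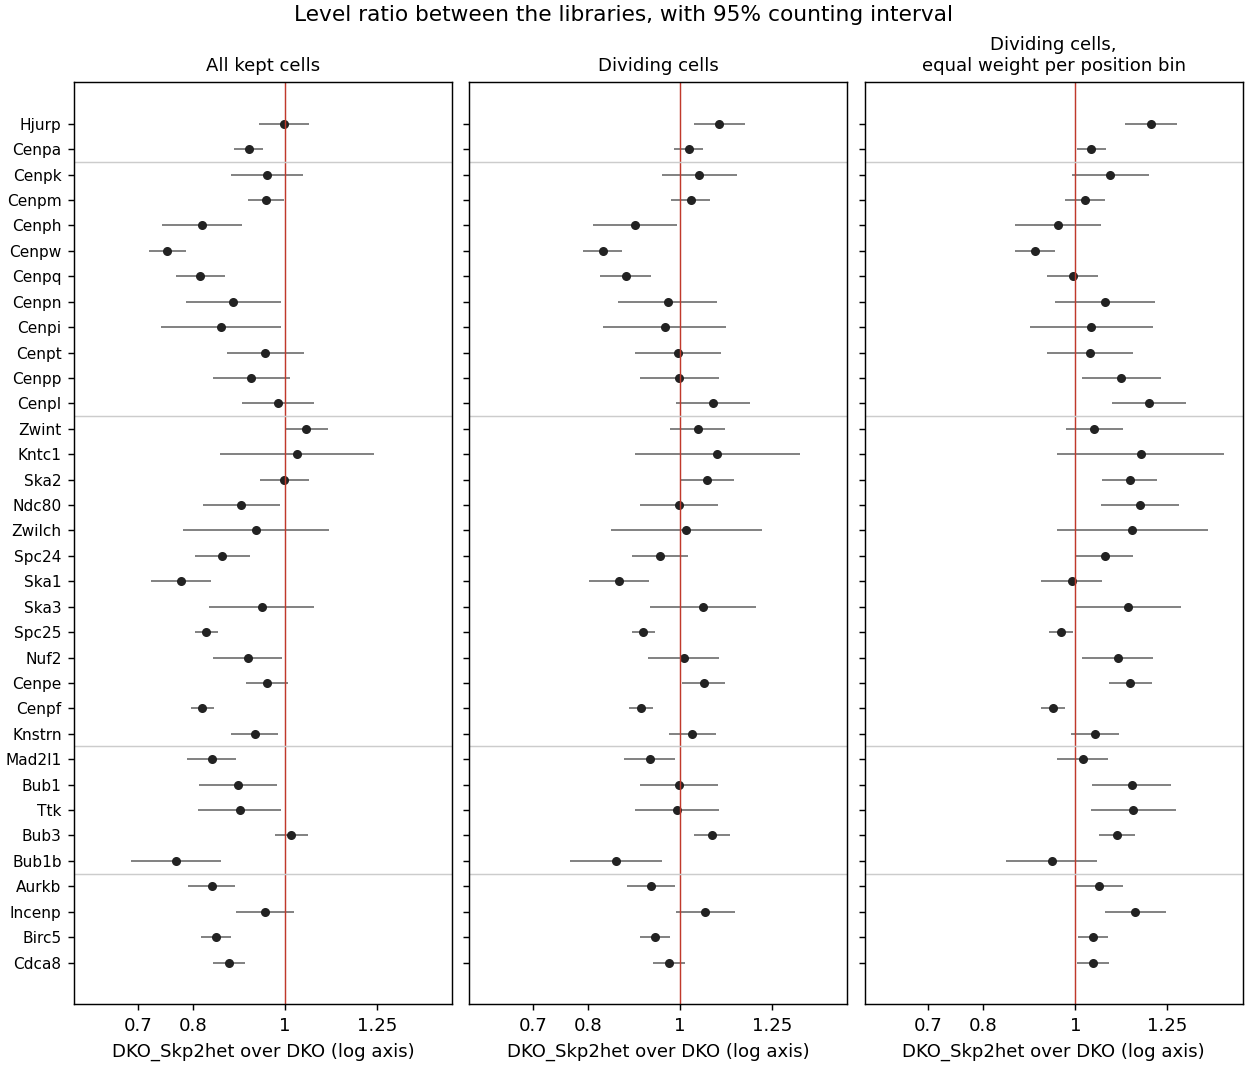
Ratio of each gene's level in DKO_Skp2het to that in DKO (log axis, with 95% counting interval) over all kept cells, in dividing cells, and in dividing cells with equal weight per position bin. The points lie mostly left of 1 in the first panel, around 1 in the second and mostly right of 1 in the third, with Cenpw left of 1 in each.

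The matched difference was not even along the axis. Summed over the 34 genes, the ratio of DKO_Skp2het to DKO was 0.928 (0.876 to 0.983) in bin 1, 1.06 (1.01 to 1.10) in bin 2, 0.933 (0.906 to 0.962) in bin 3, 1.12 (1.10 to 1.14) in bin 4, 1.06 (1.03 to 1.08) in bin 5 and 1.02 (0.998 to 1.03) in bin 6. Bins 3 and 4 thus went opposite ways. From bin 3 to bin 4 the ratio changed most for passenger genes, at 482 and 381 CPM in bin 3 (0.792, 0.731 to 0.858) and 969 and 1133 CPM in bin 4 (1.17, 1.12 to 1.23), and for checkpoint genes, at 383 and 337 CPM in bin 3 (0.881, 0.808 to 0.961) and 556 and 668 CPM in bin 4 (1.202, 1.13 to 1.28). Birc5 showed it clearly, at 159 and 105 CPM in bin 3 and 391 and 449 CPM in bin 4. Inner genes were within 10% of each other in every bin, with ratios from 0.924 to 1.09.

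**Figure D5:**
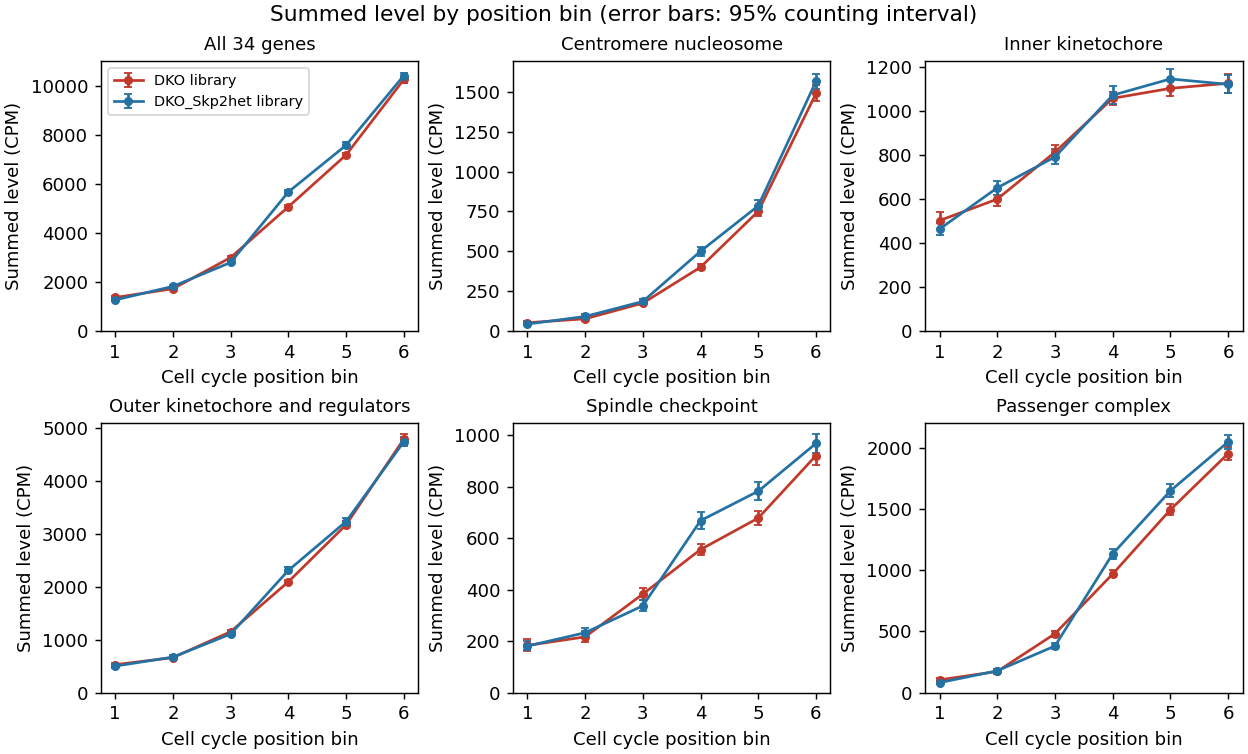
Summed level (CPM, with 95% counting interval) of all 34 genes and of each group by position bin in the 2 libraries. Summed over all genes, DKO_Skp2het lay below DKO in bin 3 (ratio 0.933) and above it in bin 4 (1.12), and the inner genes flattened from bin 4 on while the other groups kept rising.

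A further 29 genes of kinetochores, centromeres and checkpoint control that are no members were read the same way. Over all cells 23 of them were below 0 and 6 above, with a median log2 difference of -0.065. A ratio of 0.8 or less was seen for 1 and 0 were higher by at least 25%, where 5.69% and 9.44% of all genes were. Sgol1 (shugoshin), which protects centromere cohesion, was at 126 and 96.8 CPM (0.769, 0.728 to 0.812) and Sgol2a at 62.6 and 52.3 CPM (0.835, 0.774 to 0.901). Itgb3bp (CENP-R), an inner kinetochore subunit, was at 90.4 and 113 CPM (1.248, 1.18 to 1.32) and Stra13 (CENP-X) at 136 and 153 CPM (1.13, 1.08 to 1.18). In dividing cells Itgb3bp was at 106 and 141 CPM (1.33, 1.252 to 1.42) and at matched position at 108 and 142 CPM (1.32, 1.23 to 1.40). Its ratio was above those of all 34 members in each of these comparisons. At matched position 23 of the 29 genes were above 0, with a median of 0.10. Higher by at least 25% were 1 of the 29 in dividing cells and 3 at matched position, where 10.6% and 9.4% of all genes were. At a ratio of 0.8 or less were 0 in each, where 9.08% and 8.12% of all genes were.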

How the data were processed

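Single-cell 3′ libraries (10x Genomics v2 chemistry, HiSeq3000, per the labels' protocols) were analysed from the deposited tables of UMI counts per gene and barcode, not normalized. Cell Ranger 2.2.0 and mm10 are named in the submitters' processing notes; the barcode filter and strand setting are not stated there. A barcode needed 500 genes or more and a mitochondrial share of 20% or less; 1 DKO barcode and 2 of DKO_Skp2het failed. The highest doublet scores were removed at 0.8% per 1000 barcodes (105 and 216), because the automatic threshold marked only 5 and 13 and was treated as not having worked. This left 3515 and 4978 cells.

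Counts were summed per library and population and given as CPM, without division by gene length. Log2 differences use CPM plus 5. CPM and ratios carry exact Poisson or conditional binomial intervals, shares Clopper-Pearson intervals, and matched ratios a log-normal interval from Poisson counts, all at 95%; UMIs of 1 cell were treated as independent. Position used 39 S and 33 G2M genes in dividing cells with at least 10 such UMIs (2431 and 3053 cells). Bins were weighted equally for matched levels.

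Clustering used 2000 variable genes, 30 principal components, 15 neighbours and leidenalg 0.10.2 at resolution 1.0 in scanpy 1.11.5, without integration. A class name needed a mean log2 fold of its markers of at least 1.0 and at least 3 markers above 2-fold. Among the 10 leading genes it also needed more markers of its own than of any other type, or no markers of any type. A tie with another type left a cluster unnamed, as for cluster 20. These limits were set after seeing the data. Python 3.11.15, numpy 2.4.6, scipy 1.17.1 and pandas 2.3.3 were used, and interval, onset and thinning code was tested on simulated data. Coordinates are from GENCODE M21 (GRCm38, the assembly mm10 names).

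The members, groups and gene lists were chosen with earlier results of these data known. All 34 members are accounted for; full values are given for the member of each group with the most UMIs and those lowest and highest in the measure described, and outside the list for landmarks, Skp2, the 2 other pathway genes per direction with the largest library difference, and the 5 most similar profiles. Alternatives covered cell filters, depth, pseudocount, scaling, the limit for dividing cells, bins, the onset rule and the clustering resolution.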

Additional observations from a re-analysis of the deposited data

How the results depend on the processing

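No paired analysis was possible because each genotype has 1 library. Of 120 values recomputed under alternatives, 98 stayed within the interval set for the value reported, 20 moved beyond it and 2 reversed. Reversed means that a value whose interval left out 0 changed sign. For class ratios this was the counting interval, and for the onset gap it was 0.5 bins to either side. For medians over the members it ran from the median of the members' lower bounds to the median of their upper bounds. That range describes a typical member and is not a counting interval of the median, so the tally depends on this choice. The sign also changed in amacrine-like cells with doublets kept and in 2 of 10 alternatives for dividing cells, whose reported intervals held 0. Over all cells, the median log2 difference of the members (-0.13) was -0.00056 with only cells of at least 3420 UMIs and -0.25 with every cell thinned to 1500 UMIs. In dividing cells (-0.0037) it was -0.15 after thinning, and 0.10 with the common UMI minimum, where 27 of 34 members were above 0; with a limit of 5 core UMIs for dividing cells it was 0.049. At matched position it ran from 0.051 to 0.10 over 13 alternatives, always above 0, though the range set for the reported value, -0.0059 to 0.20, held 0. Those alternatives did not include levels from cells thinned to 1500 UMIs, the setting with the lowest median over all cells and in dividing cells. Whether the matched median stays above 0 after such thinning was not tested. The median log2 ratio of dividing to other cells (2.61 in DKO, 2.69 in DKO_Skp2het) was 3.19 and 3.21 with a pseudocount of 1 CPM and 1.78 and 1.77 with 20 CPM. The outer-minus-inner gap was above 0 in each alternative; it moved to 0.27 in DKO with the centre in place of the onset and to 1.23 in DKO_Skp2het with onset at 25% of the maximum.

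Class values were less stable. As log2 differences, with doublets kept amacrine-like cells were at -0.13 (0.11 as reported), cone-like at -1.03, progenitor-like at -0.46 and rod-like at -0.46. With the common UMI minimum, amacrine and horizontal precursor-like cells were at 0.11, immature neuron-like at -0.32, rod-like at -0.82, and progenitor-like reversed to 0.096. At resolution 0.5, neurogenic precursor-like cells were at 0.18 and progenitor-like at -0.34; at resolution 2.0, immature neuron-like cells were at -0.32, progenitor-like at -0.27, and Müller-like reversed to -0.29. The cause of these moves was not tested. Few UMIs limit the onset of genes such as Kntc1 and Zwilch.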
